A study of Mus musculus with 6 samples.

Results

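The EGF family is a group of growth factors that bind ErbB receptor tyrosine kinases, and 10 of its genes were followed here in the mouse mammary epithelial cell line NMuMG. Members were chosen by gene symbol: the ligands Areg, Ereg, Hbegf, Tgfa, Btc, Epgn and Nrg1, and the receptors Egfr, Erbb2 and Erbb3. All 10 were in the table of 21240 counted genes, 9 of them among the 11080 genes with enough counts to be tested. All cells were kept for 6 h without serum and insulin and then received vehicle for 2 h, TGFβ1 at 5 ng/ml for 2 h or TGFβ1 at 5 ng/ml for 12 h. Each group has 2 biological replicates, and the 6 libraries of stranded total RNA all come from a single cell line. No vehicle was taken at 12 h, so the effects of TGFβ1 for 12 h and of the longer time without serum cannot be told apart.

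EGF family ligands are made as membrane-anchored precursors, and proteases of the ADAM family cut them free. Areg, Tgfa and Epgn bind Egfr, Hbegf, Ereg and Btc bind Egfr and Erbb4, and Nrg1 binds Erbb3 and Erbb4. Erbb2 has no known ligand and serves as the partner of the other receptors, while Erbb3 has a weak kinase and signals through such a partner. In the mammary gland Areg is known as the ligand needed for duct growth, and TGFβ is known to restrain growth of mammary epithelium and to drive its transition toward a mesenchymal state.

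Promoter sequences are shown for Egfr, whose RNA changed at both times, and for Areg and Btc, neighbors on chromosome 5 whose RNA moved in opposite directions by 12 h. They come from RefSeq on GRCm38.p6 and run from 250 bases before to 50 bases after the start of the gene. Capitals mark exact matches to the motifs searched, and Btc has none. The windows are chr11:16751953-16752252 on the plus strand for Egfr, chr5:91139349-91139648 on the plus strand for Areg and chr5:91402945-91403244 on the minus strand for Btc.
Egfr: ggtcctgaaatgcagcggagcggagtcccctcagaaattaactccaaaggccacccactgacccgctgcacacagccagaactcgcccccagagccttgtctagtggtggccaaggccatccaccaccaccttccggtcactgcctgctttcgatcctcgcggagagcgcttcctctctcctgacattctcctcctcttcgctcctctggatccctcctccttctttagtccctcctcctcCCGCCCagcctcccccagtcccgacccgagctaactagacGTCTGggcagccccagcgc
Areg: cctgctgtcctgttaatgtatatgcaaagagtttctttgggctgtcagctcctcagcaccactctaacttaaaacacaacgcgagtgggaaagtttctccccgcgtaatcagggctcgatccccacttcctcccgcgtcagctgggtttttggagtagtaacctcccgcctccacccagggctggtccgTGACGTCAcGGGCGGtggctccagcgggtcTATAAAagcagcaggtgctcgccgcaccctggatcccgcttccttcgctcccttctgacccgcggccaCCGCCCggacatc
Btc: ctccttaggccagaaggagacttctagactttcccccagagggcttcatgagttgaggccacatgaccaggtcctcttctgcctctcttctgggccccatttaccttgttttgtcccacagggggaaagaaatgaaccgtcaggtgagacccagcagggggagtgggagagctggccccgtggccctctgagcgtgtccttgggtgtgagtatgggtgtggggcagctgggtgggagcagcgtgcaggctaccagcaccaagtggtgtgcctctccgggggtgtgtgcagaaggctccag

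Of the 10 members, 6 had a promoter entry, namely these 3, Tgfa, Epgn and Erbb2. On both strands the search covered the AP-1 motif TGANTCA, the cAMP response element (CRE) TGACGTCA, the SMAD box CAGAC, the GC-rich SMAD motif GGCGCC, the TATA box TATAAA and the GC box GGGCGG. Among 32851 promoters of the same length, 7.81% held the AP-1 motif, 1.79% the CRE, 49.6% the SMAD box, 11.9% the GC-rich SMAD motif, 13.6% the TATA box and 35.7% the GC box. The Egfr window held 1 GC box and 1 SMAD box, both read on the opposite strand, and no TATAAA. The Areg window held the CRE 61 bases before the start, a TATA box 31 bases before it and 2 GC boxes. The GC content was 62.3% for Egfr, 59.3% for Areg and 60.3% for Btc, against a median of 52.7% over all promoters. A match is a string of letters, and binding was not measured.

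The depth of the libraries lay between 14705886 and 23786993 counts. Levels are given as TMM-normalized CPM, the count of a gene scaled to a common library size. The response to TGFβ was visible in the known targets: of 7 tested TGFβ response genes, 2 h brought 4 calls up and 2 down, while 12 h brought 4 up and 3 down. Among all tested genes the shares were 9.91% up and 5.25% down at 2 h and 21.8% and 21.5% at 12 h. Pmepa1, a feedback inhibitor of TGFβ signaling, had a log2FC of 3.59 at 2 h (adjusted p = 0.000502) and 3.83 at 12 h (adjusted p = 0.00011, edgeR quasi-likelihood test). Of 10 mammary epithelial markers, 6 passed the filter, and the summed level of all 10 was 5030 to 5871 CPM in vehicle, 6523 to 6530 at 2 h and 10390 to 10430 at 12 h. Cdh1, the gene of E-cadherin, was present at 338 to 609 CPM and Ocln, that of the tight junction protein occludin, at 48.2 to 84.9 CPM in every library. Epcam had 2 to 16 counts, Esrp1 1 to 3, Cldn3 0 to 1 and Cldn7 0 to 7 in a library, so these 4 markers were at or near 0. The larger sum at 12 h came from the keratins Krt8, with a mean of 1074 CPM in vehicle and 3333 at 12 h, and Krt18, with 2151 and 6191. The means of Krt19 (1757 and 455), Cdh1 (392 and 372) and Ocln (74.6 and 52.0) were lower at 12 h than in vehicle. The summed fibroblast markers lay at 3.57 to 5.24 CPM in vehicle and 13.5 to 15.7 at 12 h, a difference carried mostly by Col1a1 (mean 0.961 and 10.9) beside Pdgfra at 2.47 and 2.63. Col1a2, Col3a1 and Dcn had 0 to 28 counts in a library, with replicate 1 above replicate 2 in every group, and Lum 0 to 1. The endothelial sum was 0.118 and 0.191 CPM in vehicle, 0.304 and 0.353 at 2 h and 1.74 and 1.95 at 12 h, where Cdh5 had 39 and 36 counts. The basal sum was 5.18 and 2.55 CPM in vehicle, 8.76 and 11.8 at 2 h and 5.71 and 9.04 at 12 h, mostly Krt14. The immune sum was 4.14 to 6.88 CPM, nearly all of it Cd68 with 95 to 124 counts, while Ptprc had 0 to 4 counts and Cd3e none, and the adipocyte sum was at most 0.203 CPM. The part of these shifts in the results was not tested. In bulk RNA, fewer cells that express a gene and less RNA per cell cannot be told apart.

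At 2 h, 1 member was called higher, Egfr, and 1 lower, Nrg1, where 9.91% of all tested genes were higher and 5.25% lower at an adjusted p under 0.05. Both also had an absolute log2FC above 1, the robust threshold, which 6.25% of all tested genes passed. At 12 h, 6 of the 9 tested members were called. Areg, Hbegf and Egfr were higher, against 21.8% of all genes, and Ereg, Btc and Erbb3 were lower, against 21.5%. Hbegf, Egfr, Btc and Erbb3 were robust at 12 h, a threshold that 19.6% of all genes passed. From 2 h to 12 h, Hbegf, Nrg1 and Egfr rose, against 15.2% of all genes, and Ereg, Btc and Erbb3 fell, against 18.9%. Only Hbegf and Btc were robust in that contrast, against 14.4% of all genes. Without vehicle replicate 1 the number called at 12 h against vehicle was 3, and without either 12 h library the number called from 2 h to 12 h was 2. Of all called genes, 65.4% were higher at 2 h and 50.3% at 12 h, and 46.7% and 37.5% under total counts without TMM factors. The contrasts of 2 h and 12 h with vehicle share the same vehicle libraries, so their values are given side by side.

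**Figure D1:**
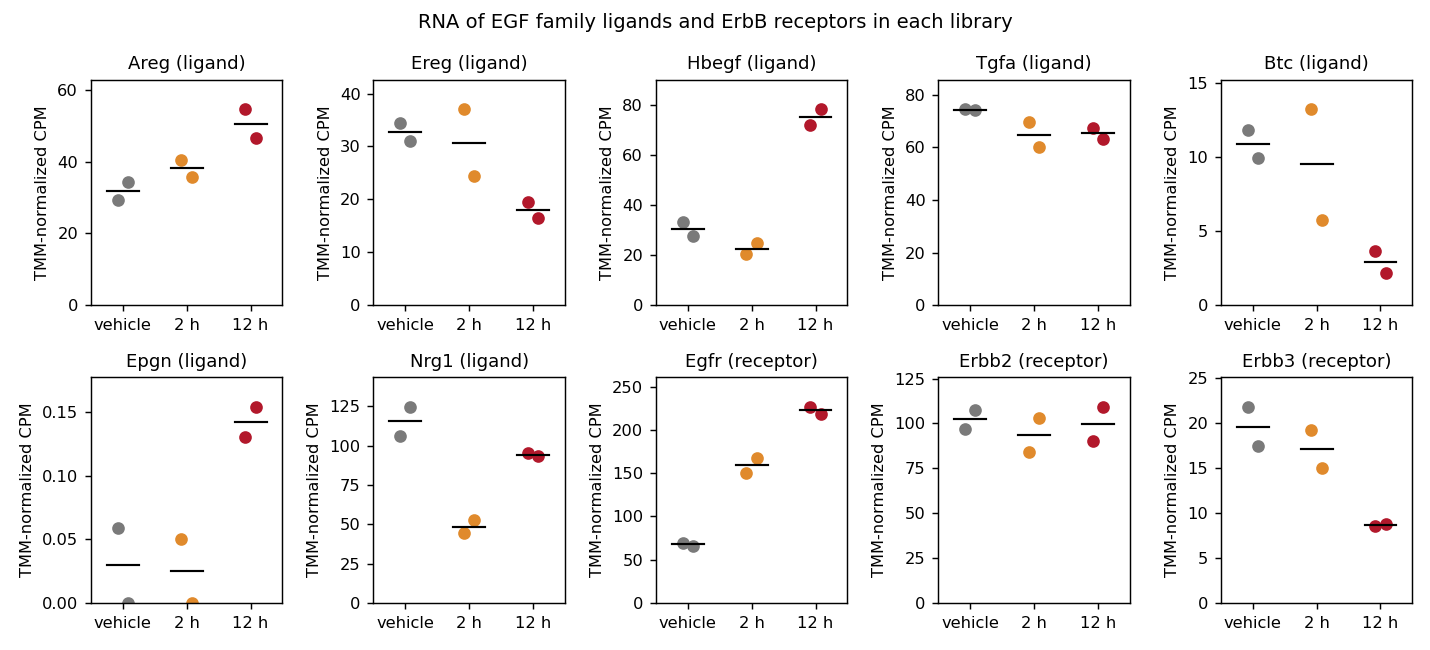
TMM-normalized CPM (vertical axes, each starting at 0) of the 10 members in each of the 6 libraries by group, with points for libraries and bars for group means. Egfr stepped up from 66.1 to 69.1 CPM in vehicle to 219 to 227 at 12 h, Nrg1 was lowest at 2 h, Hbegf was high only in the 12 h libraries, and Epgn had at most 3 counts in a library.

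Egfr, the receptor for most of these ligands, had the largest absolute log2FC among the receptors at both times. Its level was 69.1 and 66.1 CPM in the vehicle libraries, 150 and 167 at 2 h, and 227 and 219 at 12 h. The groups did not overlap, and each later group lay above the earlier one. The mean rose from 67.6 ± 2.15 CPM (SD, n = 2) to 159 ± 12.0 at 2 h and 223 ± 5.73 at 12 h. The log2FC was 1.23 ± 0.104 (SE) at 2 h, a fold of 2.35 with an adjusted p of 0.000924 by edgeR's quasi-likelihood test. At 12 h it was 1.72 ± 0.105, a fold of 3.29 with an adjusted p of 8.39e-05 by the same test. Between 2 h and 12 h the further rise of 0.49 ± 0.101 had an adjusted p of 0.0118 in edgeR. Left-out libraries did not end either call against vehicle, but the rise from 2 h to 12 h had an adjusted p of 0.0853 without 12 h replicate 1 and 0.0651 without 12 h replicate 2 (edgeR). Egfr lies at chr11:16652206-16818161 on the plus strand (NCBIM37, the mm9 build), with 6 annotated transcripts.

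Erbb3, the neuregulin receptor that needs a kinase partner, fell late. It stood at 21.8 and 17.4 CPM in vehicle and 19.2 and 15.04 at 2 h, and these groups overlapped. Both 12 h libraries, at 8.59 and 8.78 CPM, lay below all the others. The log2FC was −0.20 ± 0.187 at 2 h (adjusted p = 0.532) and −1.17 ± 0.192 at 12 h, a fold of 0.443 (adjusted p = 0.00325, edgeR). Between 2 h and 12 h it fell by 0.98 on the log2 scale (SE 0.191, adjusted p = 0.00936, edgeR), and this call was lost without 12 h replicate 1 (adjusted p = 0.0784) or 12 h replicate 2 (adjusted p = 0.0702). The gene lies at chr10:128004579-128026708 on the minus strand.

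Erbb2, the receptor without a ligand, was not called in any contrast. Its libraries held 96.6 and 108 CPM in vehicle, 84.1 and 103 at 2 h and 89.9 and 109 at 12 h, and all 3 groups overlapped. The log2FC was −0.13 ± 0.150 at 2 h (adjusted p = 0.624) and −0.04 ± 0.149 at 12 h (adjusted p = 0.86, edgeR). It lies at chr11:98273784-98299030 on the plus strand.

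**Figure D2:**
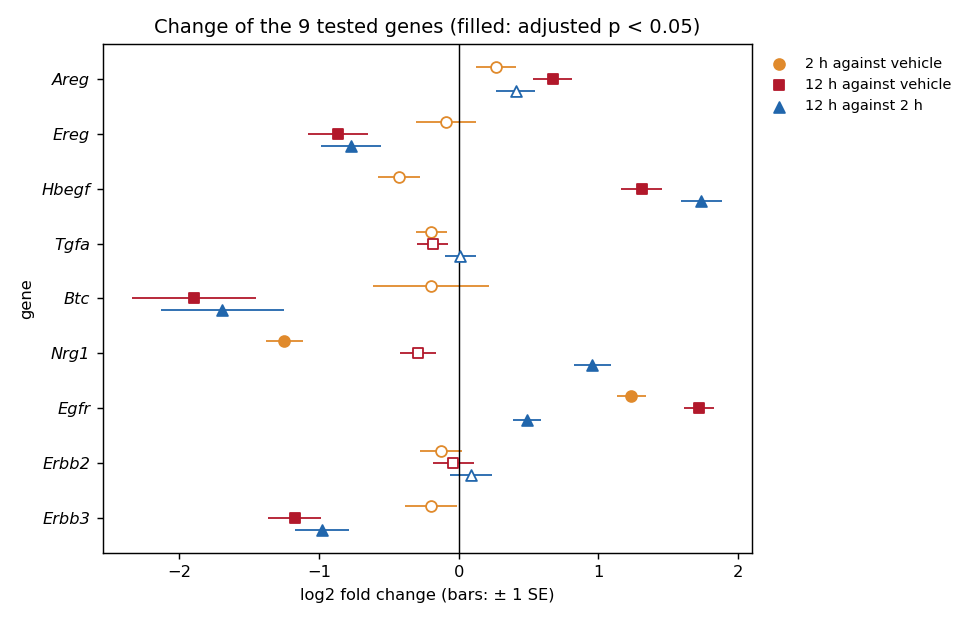
Log2 fold change (horizontal axis, bars ± 1 SE) of the 9 tested members in the 3 contrasts, with filled symbols for an adjusted p under 0.05 in edgeR's quasi-likelihood test. Egfr is called in all 3 contrasts, Nrg1 is called lower at 2 h and higher from 2 h to 12 h, and Tgfa and Erbb2 are called in none.

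Per length, Erbb2 held the largest share of receptor RNA in vehicle, and the share of Egfr was larger at 2 h and 12 h. Levels per length were taken as RPKM over the union of annotated exons. Egfr stood at 6.11 and 5.84 RPKM in vehicle, 13.3 and 14.8 at 2 h and 20.0 and 19.3 at 12 h, beside 18.6 and 20.7, 16.2 and 19.8, and 17.3 and 21.0 for Erbb2. In shares of the summed receptor RPKM, Egfr held 20.7% ± 1.23 (SD, n = 2) in vehicle, 40.3% ± 0.609 at 2 h and 49.0% ± 3.86 at 12 h. Erbb2 held 68.0% ± 3.33, 51.4% ± 2.75 and 47.4% ± 3.99, so that by this length Egfr and Erbb2 did not differ at 12 h beyond the spread between libraries. By coding length Egfr held 36.8% in vehicle, 60.1% at 2 h and 68.3% at 12 h, and Erbb2 53.5%, 34.0% and 29.3%, so the order of these receptors at 2 h turns with the length used. Erbb3 was lowest throughout, at 11.3% ± 2.1, 8.26% ± 2.15 and 3.59% ± 0.133.

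The ratio of Egfr to Erbb2 RPKM was 0.329 and 0.282 in vehicle, 0.823 and 0.747 at 2 h and 1.16 and 0.921 at 12 h. Every 2 h library lay above every vehicle library, and every 12 h library above every 2 h one. The ratio was thus 2.57-fold higher at 2 h and 3.39-fold higher at 12 h than in vehicle, as geometric means. For Egfr to Erbb3 the ratio went from 1.69 and 2.02 to 14.0 and 13.2 at 12 h, a fold of 7.38. Such folds do not depend on the gene lengths used, whereas the shares do. No test was run on shares or ratios, for which an exact permutation test of 2 against 2 libraries cannot give a p below 0.333.

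**Figure D3:**
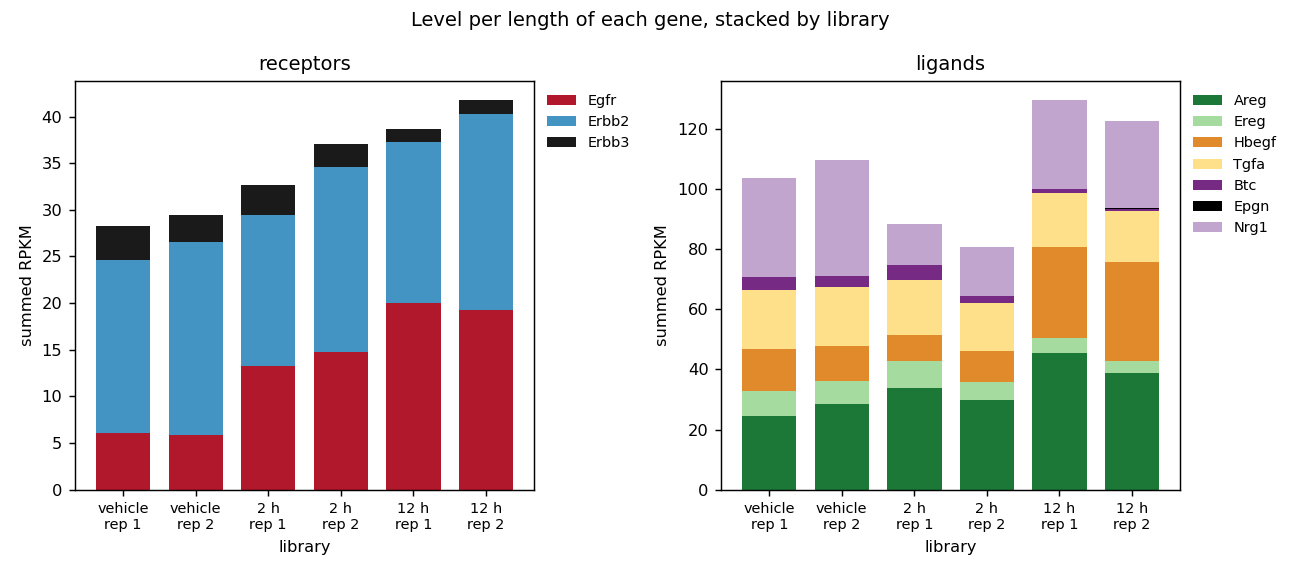
Summed RPKM (vertical axes, starting at 0) of the receptors (left) and ligands (right), stacked by gene, in each of the 6 libraries. The Egfr segment grows from 5.84 to 6.11 RPKM in vehicle to 19.3 to 20.0 at 12 h beside a steady Erbb2 segment. Of the ligands, Nrg1 has a smaller segment at 2 h than in its other groups, and Hbegf a larger one at 12 h than in its other groups.

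Among the ligands, Nrg1, which signals through Erbb3 and Erbb4, fell at 2 h and rose again by 12 h, to a level below both vehicle libraries. It stood at 106 and 125 CPM in vehicle, 44.3 and 52.8 at 2 h and 95.1 and 93.1 at 12 h. The 2 h libraries were far below all the others, and the 12 h libraries lay somewhat below vehicle. The log2FC at 2 h was −1.25 ± 0.132, a fold of 0.421 (adjusted p = 0.00201, edgeR). At 12 h it was −0.29 ± 0.129 (adjusted p = 0.112), and from 2 h to 12 h the RNA rose by 0.95 ± 0.131, a fold of 1.94 (adjusted p = 0.00262, edgeR). The fall at 2 h and the rise that followed were called with any single library left out. The difference at 12 h lay near the threshold and passed it in 3 of 15 alternatives (adjusted p = 0.0393 to 0.0493, edgeR). Nrg1 lies at chr8:32928500-33119581 on the minus strand.

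Hbegf, the heparin-binding ligand, moved late and upward. It held 33.2 and 27.5 CPM in vehicle, 20.5 and 24.7 at 2 h and 72.1 and 78.3 at 12 h. The 12 h libraries were far above the rest, and both 2 h libraries lay below both vehicle libraries. The difference at 2 h, a log2FC of −0.43 ± 0.149, did not pass the test (adjusted p = 0.111; 0.0472 in the 1 of 15 alternatives that passed), whereas the log2FC was 1.31 ± 0.148 at 12 h, a fold of 2.48 (adjusted p = 0.000711, edgeR). Against 2 h it was 1.74 ± 0.150, a fold of 3.33 (adjusted p = 0.000561, edgeR). Both calls held with any single library left out.

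Areg, the ligand known for duct growth, rose more gently. Its libraries stood at 29.3 and 34.3 CPM in vehicle, 40.5 and 35.9 at 2 h and 54.7 and 46.6 at 12 h. Each group lay above the one before it, with narrow gaps. The log2FC was 0.26 ± 0.142 at 2 h (adjusted p = 0.27) and 0.67 ± 0.142 at 12 h, a fold of 1.59 (adjusted p = 0.00919, edgeR). The call at 12 h was lost without vehicle replicate 1 (adjusted p = 0.0643) or 12 h replicate 1 (adjusted p = 0.082, edgeR). From 2 h to 12 h the difference was 0.41 ± 0.140 (adjusted p = 0.0646; 0.0269 in the 1 of 15 alternatives that passed, edgeR).

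Ereg, whose product epiregulin binds Egfr and Erbb4 weakly, fell by 12 h. It held 34.5 and 31.1 CPM in vehicle, 37.1 and 24.4 at 2 h and 19.5 and 16.4 at 12 h. The 2 h libraries lay on either side of vehicle, and both 12 h libraries were below all the others. The log2FC was −0.09 ± 0.213 at 2 h (adjusted p = 0.806) and −0.87 ± 0.217 at 12 h, a fold of 0.549 (adjusted p = 0.0179, edgeR). This call was lost without vehicle replicate 1 (adjusted p = 0.0804), 12 h replicate 1 (adjusted p = 0.0666) or 12 h replicate 2 (adjusted p = 0.125, edgeR). From 2 h to 12 h it fell by 0.77 on the log2 scale (SE 0.216, adjusted p = 0.0335, edgeR). That call was lost without vehicle replicate 1 (log2FC −0.77) or 2 h replicate 1 (log2FC −0.44). It was also lost without 12 h replicate 1 (log2FC −0.91) or 12 h replicate 2 (log2FC −0.66).

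Btc, which encodes betacellulin, fell most among the members by 12 h. Its libraries held 11.8 and 9.94 CPM in vehicle, 13.2 and 5.75 at 2 h and 3.66 and 2.16 at 12 h. The 2 h replicates differed by 1.17 on the log2 scale, more than for any other tested member, and the 12 h libraries were the lowest. The log2FC was −0.20 ± 0.414 at 2 h (adjusted p = 0.787) and −1.89 ± 0.442 at 12 h, a fold of 0.269 (adjusted p = 0.0137, edgeR). Without vehicle replicate 1 the adjusted p at 12 h was 0.056, and without 12 h replicate 2 it was 0.104 (edgeR). Against 2 h it fell by 1.69 on the log2 scale (SE 0.440, adjusted p = 0.026, edgeR). Without 2 h replicate 1 the log2FC was −0.97 (adjusted p = 0.0623), and the call was also lost without 12 h replicate 1 (adjusted p = 0.0776) or 12 h replicate 2 (adjusted p = 0.165).

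Tgfa, which encodes the Egfr ligand TGFα, was not called in any contrast. It held 74.5 and 74.2 CPM in vehicle, 69.6 and 60.1 at 2 h and 67.3 and 63.3 at 12 h. All treated libraries lay below both vehicle libraries, by a log2FC of −0.20 ± 0.110 at 2 h (adjusted p = 0.288) and −0.19 ± 0.110 at 12 h (adjusted p = 0.217, edgeR). Under total counts without TMM factors, which shifts the median log2FC of all genes to −0.12 at 2 h and −0.115 at 12 h, the log2FC at 12 h was −0.32 (adjusted p = 0.0476, edgeR). Tgfa lies at chr6:86145420-86225151 on the plus strand. Epgn, the gene of epigen, had 1 and 0 counts in vehicle, 1 and 0 at 2 h and 3 and 3 at 12 h, at or below the limit that a count of 0 allows (3 counts), so no fold is given.

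Per length, Nrg1 held the largest mean share of the summed ligand RPKM in vehicle, 33.5% ± 2.5 (SD, n = 2), followed by Areg at 24.8% ± 1.77, Tgfa at 18.5% ± 0.776 and Hbegf at 12.0% ± 2.06. Ereg at 7.44% ± 0.826 and Btc at 3.66% ± 0.592 were lower, and these 6 shares did not overlap between genes in vehicle. At 2 h Areg came first at 37.7% ± 0.813, and Nrg1 at 17.9% ± 3.37 and Tgfa at 20.4% ± 0.792 did not differ beyond their spread. At 12 h the order was Areg at 33.5% ± 2.44, then Hbegf at 25.2% ± 2.47 and Nrg1 at 23.2% ± 0.573, which did not differ beyond their spread, then Tgfa at 13.8% ± 0.0567. The order between ligands depends on the lengths used: by coding length Tgfa came first in vehicle with 40.0% and Nrg1 held 14.1%. By that length Tgfa also came first at 2 h with 41.52% and at 12 h with 33.15%, while Areg held 15.7% and 16.45%. The summed ligand RPKM was 103.8 and 109.7 in vehicle, 88.4 and 80.7 at 2 h and 129.5 and 122.5 at 12 h.

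The ratio of Hbegf to Tgfa RPKM was 0.706 and 0.587 in vehicle, 0.466 and 0.651 at 2 h and 1.7 and 1.96 at 12 h, where it was 2.83-fold the vehicle ratio. The ratio of Areg to Ereg, whose genes are neighbors, went from 2.94 and 3.8 in vehicle to 3.77 and 5.07 at 2 h and 9.66 and 9.79 at 12 h, a fold of 2.91 at 12 h. In both ratios the 12 h libraries stood above all the others, while the 2 h and vehicle libraries overlapped.

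Epgn, Ereg, Areg and Btc lie together on chromosome 5, in this order, within 375.4 kb (chr5:91456490-91831939, NCBIM37). Ereg at chr5:91503643-91522675 and Areg at chr5:91568641-91577458 are on the plus strand, Btc at chr5:91786287-91831939 on the minus strand. Of the 3 tested genes of the cluster, none was called at 2 h by edgeR's quasi-likelihood test. At an unadjusted p under 0.05 the count was also 0, and so it was with limma-voom and DESeq2 at an adjusted p under 0.05. At 12 h Areg was higher while Ereg and Btc were lower.

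Within 500 kb of the cluster, 14 genes were counted and 8 tested. Of the 5 tested genes that are not members, 3 were lower and 1 higher at 2 h, and 3 were lower at 12 h, beside 9.91% of all genes higher and 5.25% lower at 2 h and 21.5% lower at 12 h. Cxcl5, the gene of a chemokine that attracts neutrophils, had 6811 and 2465 counts in vehicle, 783 and 289 at 2 h and 49 and 35 at 12 h. Its log2FC was −3.36 at 2 h (adjusted p = 0.0123) and −7.14 at 12 h (adjusted p = 0.000514, edgeR), and its vehicle libraries differed widely. The chemokine gene Cxcl1 had a log2FC of −2.63 at 2 h (adjusted p = 0.00621) and −3.80 at 12 h (adjusted p = 0.000593, edgeR). Rassf6, of the Ras association domain family, had −0.98 (adjusted p = 0.00328) and −1.86 (adjusted p = 0.000104), Parm1 0.68 (adjusted p = 0.0176) and −0.08 (adjusted p = 0.663), and the folate enzyme gene Mthfd2l −0.30 (adjusted p = 0.462) and 0.06 (adjusted p = 0.863). Of the genes not tested, Cxcl15 had 42 and 8 counts in vehicle, 16 and 6 at 2 h and 0 in both 12 h libraries, and Ppbp, Pf4, Cxcl3 and Cxcl2 had 0 to 5 counts in a library. Areg was the only tested gene of the window that was called higher at 12 h.

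**Figure D4:**
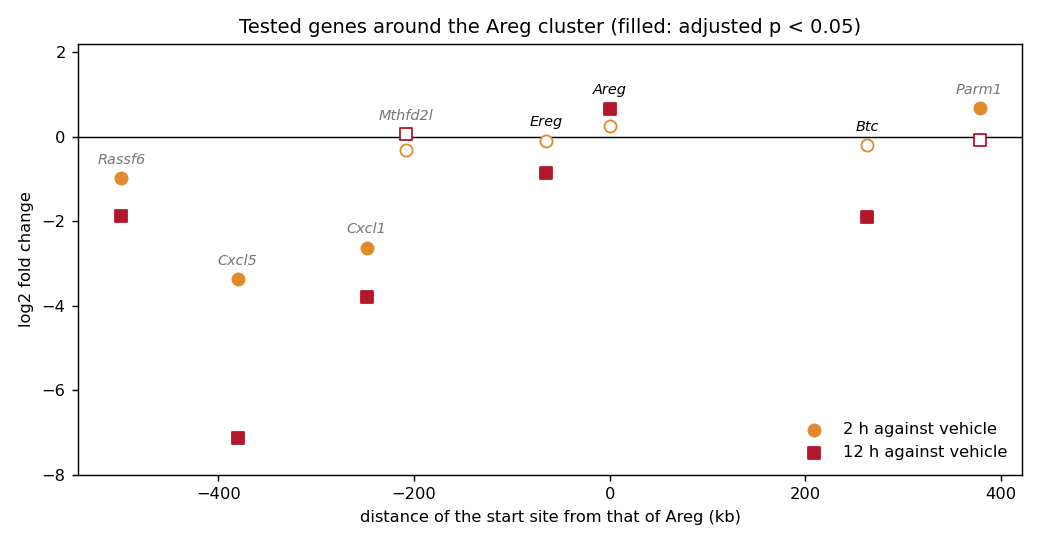
Log2 fold change (vertical axis) at 2 h and 12 h against vehicle of the 8 tested genes within 500 kb of the Areg cluster, by distance of the start site from that of Areg in kb (horizontal axis), with filled symbols for an adjusted p under 0.05. Areg lies above 0 at 12 h between Ereg and Btc, which lie below it, and Cxcl5 shows the lowest values.

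The remaining genes of the family were hardly expressed. Of Egf, Nrg2, Nrg3, Nrg4 and Erbb4, only Egf passed the filter, with 45 and 49 counts in vehicle, 9 and 28 at 2 h and 45 and 44 at 12 h. Its log2FC was −1.62 ± 0.483 at 2 h (adjusted p = 0.0724) and −0.45 ± 0.444 at 12 h (adjusted p = 0.451, edgeR), and the value at 2 h passed in 2 of 14 alternatives, one of them without 2 h replicate 2 (log2FC −2.64, adjusted p = 0.0103, edgeR). Erbb4, the other neuregulin receptor, had 0 to 2 counts in a library, and Nrg3 had none. Nrg4 went from 14 and 21 counts in vehicle to 3 and 5 at 2 h and 0 in both 12 h libraries. Its mean CPM in vehicle was 7.59-fold that of 3 counts per 12 h library. Nrg2 had 6 and 6 counts in vehicle, 5 and 5 at 2 h and 0 in both 12 h libraries, and its vehicle mean was 2.58-fold that limit. Neither was tested, and these folds do not cover the counting error of the vehicle libraries.

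The list of genes that cut ligands free or control this step holds proteases, carriers of a protease and an inhibitor. Its genes were called higher more often than lower, as were all genes at 2 h. These counts mix opposite roles, and shedding was not measured. Of 8 tested sheddases and partners, 4 were called higher and 4 not called at 2 h, and at 12 h 5 higher and 1 lower, with median log2FC of 0.42 and 0.77 where the medians of all genes were −0.01 and 0.02. Of all tested genes, 9.91% were called higher and 5.25% lower at 2 h, and 21.8% and 21.5% at 12 h. Timp3, an inhibitor of ADAM proteases, had 0.766 and 0.446 CPM in vehicle, 11.04 and 9.39 at 2 h and 45.4 and 44.2 at 12 h. Its groups were far apart, with a log2FC of 4.05 at 2 h (adjusted p = 0.000326) and 6.18 at 12 h (adjusted p = 3.34e-05, edgeR). Adam12, a protease reported to cut Hbegf, went from 0.766 and 1.21 CPM in vehicle and 0.557 and 1.77 at 2 h to 33.8 and 43.3 at 12 h, a log2FC of 5.28 (adjusted p = 0.000284, edgeR). Adam17, the main sheddase of Areg, Hbegf and Tgfa, was the list member called lower at 12 h against vehicle: 92.2 and 100 CPM in vehicle, 90.7 and 87.0 at 2 h and 57.8 and 61.3 at 12 h, a log2FC of −0.69 at 12 h (adjusted p = 0.00201, edgeR). Adam9, another protease of the family, stood at 297 and 290 CPM in vehicle, 364 and 299 at 2 h and 231 and 229 at 12 h. Its log2FC was −0.35 at 12 h against vehicle (adjusted p = 0.053) and −0.53 at 12 h against 2 h, where it was called lower (adjusted p = 0.0163, edgeR). Rhbdf1 and Rhbdf2, which carry Adam17 to the cell surface, had a log2FC of 1.17 (adjusted p = 0.00148) and 0.60 (adjusted p = 0.00755) at 2 h. The call of Rhbdf2 was lost without either vehicle library (adjusted p = 0.0746 and 0.0537, edgeR). Adam15, the only protease of the list called at 2 h, had 0.65 at 2 h (adjusted p = 0.00915) and 1.41 at 12 h (adjusted p = 0.000158, edgeR). Adam10, another protease of the list, was not called in any contrast. It stood at 177 and 163 CPM in vehicle, 208 and 160 at 2 h and 204 and 155 at 12 h. Its log2FC was 0.11 at 2 h (adjusted p = 0.713) and 0.08 at 12 h (adjusted p = 0.751, edgeR).

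Of 24 adaptors and proximal signal carriers, all tested, 6 were called higher and 18 not called at 2 h, and at 12 h 9 higher and 2 lower, with medians of 0.24 and 0.21. Among all genes, 9.91% were higher at 2 h, and at 12 h 21.8% were higher and 21.5% lower. Src, a kinase that ErbB receptors engage, stood at 155 and 134 CPM in vehicle, 331 and 299 at 2 h and 386 and 397 at 12 h. Each group lay above the one before it, with a log2FC of 1.12 at 2 h (adjusted p = 0.00187) and 1.44 at 12 h (adjusted p = 0.000209, edgeR). Ptpn11, a phosphatase that carries receptor signals to Ras, had 0.52 at 2 h (adjusted p = 0.0165), lost without any 1 of the vehicle or 12 h libraries (adjusted p = 0.0545 to 0.128), and 1.01 at 12 h (adjusted p = 0.000391, edgeR). Map2k1, the kinase that activates ERK, had 0.87 at 12 h (adjusted p = 0.00266, edgeR).

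Of 15 tested genes for inhibition and turnover of the receptors, 1 was higher and 4 were lower at 2 h, as were 2 and 3 at 12 h, with medians of 0.07 and 0.11, beside 9.91% and 5.25% of all genes at 2 h and 21.8% and 21.5% at 12 h. Errfi1, an inhibitor that binds the Egfr kinase, held 31.3 and 27.7 CPM in vehicle, 11.6 and 6.81 at 2 h and 27.4 and 28.0 at 12 h. Both 2 h libraries were below all the others, with a log2FC of −1.68 at 2 h (adjusted p = 0.0067, edgeR). Grb7, which is an adaptor of ErbB receptors rather than an inhibitor, had −1.42 at 2 h (adjusted p = 0.00248) and −1.28 at 12 h (adjusted p = 0.00104, edgeR), from 58.2 and 47.8 CPM in vehicle to 18.2 and 21.5 at 2 h and 20.5 and 23.3 at 12 h. Of the leucine-rich Lrig family, Lrig2 had −0.83 at 2 h (adjusted p = 0.00886) and −0.62 at 12 h (adjusted p = 0.00929), and Lrig3 1.11 at 12 h (adjusted p = 0.0114, edgeR). The call of Lrig2 at 2 h was lost without vehicle replicate 1 (adjusted p = 0.0632), and those of Lrig2 and Lrig3 at 12 h without vehicle replicate 1 or either 12 h library (adjusted p = 0.0549 to 0.0749).

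Genes known as targets or feedback regulators of ERK were mostly higher at 12 h than at 2 h, with 9 of 14 tested called higher in that contrast and 5 not called (edgeR), beside 15.2% of all genes called higher and 18.9% lower. Against vehicle, 4 were called higher and 1 lower at 2 h, while at 12 h the calls were 11 higher and 1 lower, beside 9.91% and 5.25% of all genes at 2 h and 21.8% and 21.5% at 12 h, with median log2FC of −0.17 and 1.30. Spry1, a feedback inhibitor of receptor tyrosine kinases, was the gene that fell, from 23.0 and 17.5 CPM in vehicle to 1.72 and 2.47 at 2 h and 6.97 and 4.93 at 12 h, a log2FC of −3.27 at 2 h (adjusted p = 0.00114, edgeR). Dusp5, a phosphatase of nuclear ERK, went from 1.71 and 1.59 CPM in vehicle to 11.8 and 13.9 at 12 h, a log2FC of 2.95 (adjusted p = 0.000158, edgeR). Myc stood at 12.5 and 21.0 CPM in vehicle, 16.2 and 18.5 at 2 h and 59.7 and 65.9 at 12 h, a log2FC of 1.91 at 12 h (adjusted p = 0.00112, edgeR). Spred2 had 1.52 at 2 h (adjusted p = 0.00387) and 1.55 at 12 h (adjusted p = 0.00104), and Phlda1 1.22 at 2 h (adjusted p = 0.0091), lost without either vehicle library (adjusted p = 0.0697 and 0.0626, edgeR). ERK activity was not measured.

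Other receptor tyrosine kinases moved in both directions, with 6 of 17 tested called up and 2 down at 2 h, and 8 up and 5 down at 12 h, and medians of 0.26 and 0.22. The shares of all genes were 9.91% up and 5.25% down at 2 h and 21.8% and 21.5% at 12 h. Mst1r, the receptor of macrophage-stimulating protein, had a log2FC of 3.26 at 2 h (adjusted p = 0.00098) and Igf1r 0.94 (adjusted p = 0.00394), both by edgeR. Ephb2, an ephrin receptor, had 3 and 1 counts in vehicle, 29 and 32 at 2 h and 178 and 112 at 12 h, and was called higher at both times (adjusted p = 0.0052 and 0.000177, edgeR). No fold is given for it, since vehicle lay at or below 3 counts. At 12 h Fgfr2 had −3.44 (adjusted p = 4.68e-05) and Met, the receptor of hepatocyte growth factor, −1.51 (adjusted p = 0.000198, edgeR). Met stood at 403 and 396 CPM in vehicle, 305 and 252 at 2 h and 141 and 140 at 12 h, with no overlap between groups.

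**Figure D5:**
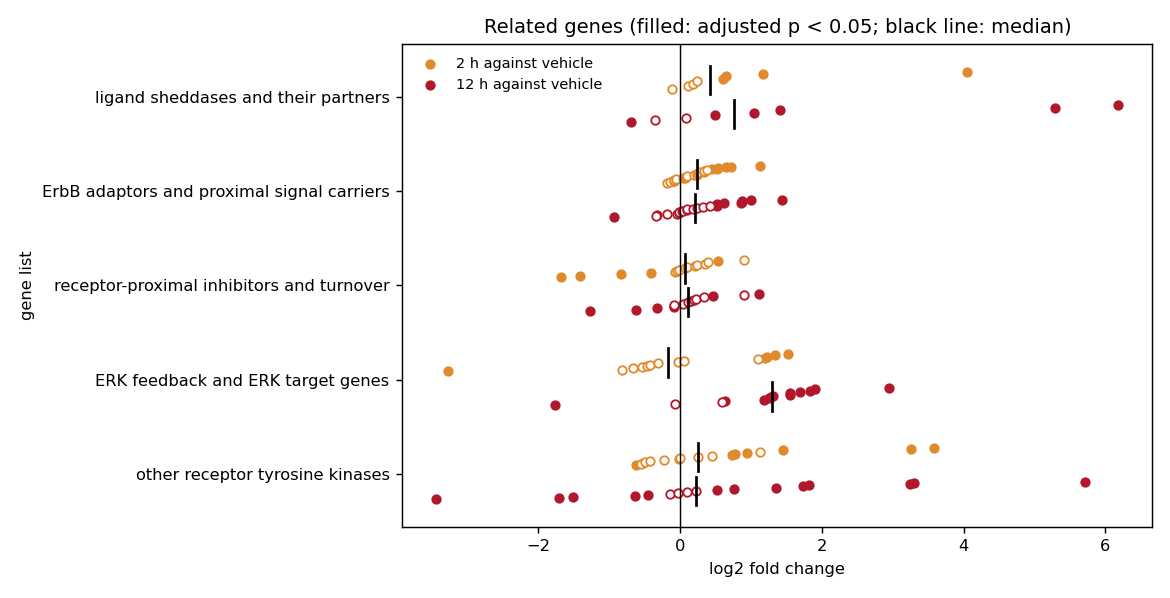
Log2 fold change (horizontal axis) at 2 h and 12 h against vehicle of the tested genes in 5 lists of related genes (vertical axis), with filled points for an adjusted p under 0.05 and a black line for the median of each list. The median of the ERK feedback and target genes lies at −0.17 at 2 h and 1.30 at 12 h, and those of the other lists lie between 0.07 and 0.77.

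Over the 6 libraries, the genes with the profile most like that of called members were found by the Euclidean distance between centered log2 CPM. For Egfr they were Prr5 at 0.216 and Hyal2 at 0.241, beside a range of 1.77 for Egfr itself. For Nrg1 they were Zfp174 at 0.208 and Fam35a at 0.272, and for Hbegf Pus7 at 0.229 and Trmt61a at 0.255. Areg was nearest to Smn1 at 0.104. Erbb3 was nearest to Lyplal1 at 0.134, and Btc, the member with the widest range, to Arhgap26 at 0.426. These distances are a description of 6 libraries and were not tested.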

How the data were processed

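Stranded total RNA (50-base single-end reads) was sequenced from 6 libraries, 2 biological replicates of each group, which the labels give. After quality filtering, the authors mapped the reads with subjunc (mm9), retained unique alignments, removed duplicates with SAMtools 0.1.19 and counted reads by strand on KnownGene exons with featureCounts. The deposited values are raw counts per gene with no normalization.

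Counts were tested in R 4.3.3 with edgeR 4.0.16: quasi-likelihood test, TMM factors, a single fit of all 6 libraries, a minimum of 2 CPM in 2 or more libraries, Benjamini-Hochberg adjustment within each contrast, two-sided. Called means an adjusted p under 0.05. SE is the absolute log2FC divided by the square root of F. Alternatives used limma 3.58.1, DESeq2 1.42.0, other scalings and filters, a replicate block, a prior count of 2 and left-out libraries. The procedure was tested on simulated data. P-values rest on the spread between replicates of a cell line, pooled over the 3 groups of the fit and moderated with that of other genes. Counting limits cover counting error only.

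Positions and lengths came from GENCODE M1 on NCBIM37, promoters from RefSeq on GRCm38.p6 (Python 3.11.15). Depth was 14705886 to 23786993 counts, and the absolute log2 difference between replicates had a median of 0.152 (vehicle), 0.22 (2 h) and 0.134 (12 h) over tested genes.

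The members and lists were chosen with earlier results of these data known. Named from each list were up to 3 genes per contrast with vehicle with the lowest adjusted p among called genes whose treated libraries lay outside the vehicle range, or the most expressed gene where none qualified. All members, all genes of the remaining family and all counted genes around the Areg cluster were included. Adam9, Adam10 and Adam17, and Adam15 at 2 h, were named after their values were seen. Some genes that this rule selects are not reported here.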

Additional observations from a re-analysis of the deposited data

Results flagged for a closer look

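The response of 6 members differed between 2 h and 12 h of TGFβ1, by edgeR's quasi-likelihood test of the difference between the times, in which 15.2% of all genes were called higher and 18.9% lower. Without either 12 h library the number was 2. Hbegf (log2FC 1.74, adjusted p = 0.000561), Nrg1 (0.95, adjusted p = 0.00262) and Egfr (0.49, adjusted p = 0.0118) were higher at 12 h than at 2 h. Ereg (−0.77, adjusted p = 0.0335), Btc (−1.69, adjusted p = 0.026) and Erbb3 (−0.98, adjusted p = 0.00936) were lower. The 12 h libraries of Hbegf lay above both earlier groups, whereas those of Nrg1 lay between the 2 h and the vehicle libraries.

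Among genes of the related lists, the same test of 12 h against 2 h gave higher levels for Timp3 (log2FC 2.13), Adam15 (0.76), Adam12 (5.04), Ptpn11 (0.49), Map2k1 (0.63), Errfi1 (1.59) and Lrig3 (1.18). It also did so for the ERK genes Spry1 (1.51), Dusp5 (1.61) and Myc (1.86) and the receptors Igf1r (0.41) and Ephb2 (2.13). Levels were lower at 12 h than at 2 h for Fgfr2 (−2.95), Met (−0.99) and Id3 (−0.99). Their adjusted p-values in edgeR ranged from 0.000167 for Fgfr2 to 0.0388 for Igf1r. These genes were chosen for their calls against vehicle. List genes outside that choice were also called in this contrast, in both directions. For related genes the alternatives were not examined in it.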

How the results depend on the processing

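With 2 replicates a group, leaving out a library leaves 1 in its group, so a call can be lost through lower precision alone. Calls of Ereg and Btc, of Areg at 12 h and of Egfr and Erbb3 from 2 h to 12 h were lost without certain single libraries. Without 12 h replicate 1 or 2, the log2FC from 2 h to 12 h was 0.45 and 0.51 for Egfr (0.49 with all libraries). For Erbb3 it was −0.9693 and −0.9997 (−0.98 with all). Without 2 h replicate 1 it was smaller in size for Ereg (−0.44, −0.77 with all) and Btc (−0.97, −1.69 with all). RNA levels do not give protein or ligand release. Of 27 member values 11, and of 38 values of related genes 30, kept direction and side of the threshold in every alternative run. With a library left out, the number of members called was 2 at 2 h, 3 to 6 at 12 h and 2 to 6 from 2 h to 12 h. The calls in the related lists, 34 at 2 h and 54 at 12 h, ranged from 18 to 35 and from 34 to 59 with a library left out, and 20 were called at 2 h with only the groups compared in the fit. The values that changed sign were not called by edgeR in either setting. With a library left out, the log2FC at 2 h ran from −0.44 to 0.18 for Ereg and from −0.94 to 0.28 for Btc, both above 0 without 2 h replicate 2. For Erbb2 it ran from −0.19 to 0.083 at 12 h (above 0 without vehicle replicate 2 or 12 h replicate 1) and from −0.062 to 0.24 from 2 h to 12 h (below 0 without 2 h replicate 1 or 12 h replicate 2). For Tgfa from 2 h to 12 h it ran from −0.092 to 0.12 (below 0 without 2 h replicate 2 or 12 h replicate 1) and was −0.0056 under total counts. The cause was not tested. The labels do not say what a shared replicate number marks. Same-numbered libraries deviated from their group means with a correlation across genes of 0.708 (vehicle and 2 h), 0.263 (vehicle and 12 h) and 0.392 (2 h and 12 h). A fit with the replicate block called 3 members at 2 h, 7 at 12 h and 7 from 2 h to 12 h, and 44 and 61 genes of the related lists. It added Hbegf at 2 h (adjusted p = 0.0472), Nrg1 at 12 h (adjusted p = 0.0393), Egf at 2 h (log2FC −1.65, adjusted p = 0.00953) and Areg from 2 h to 12 h (adjusted p = 0.0269, edgeR).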

Other observations

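Grb7 and Erbb2 lie side by side on chromosome 11 of NCBIM37, on the same strand with 8.68 kb and no other counted gene between them. Their RNAs were not called in the same way: Grb7 had a log2FC of −1.42 at 2 h and −1.28 at 12 h, both called, and Erbb2 −0.13 and −0.04, neither called (edgeR). The difference between the genes was not tested.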
